A study of Mus musculus with 12 samples.

Results

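The comparison described here is the early loss of transcripts in wild type leukemic cells, 4 h of actinomycin D against 0 h. It uses 4 of the 12 libraries of the series, 2 at 0 h and 2 at 4 h. Genes entered with at least 1 TPM in at least 2 of the 12 libraries, which held for 11152 of 24589 genes. TPM is a relative abundance of transcripts, corrected for their length, that sums to 1000000 in each library.

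All libraries came from NRAS/AE9a leukemic cells, a mouse acute myeloid leukemia line that by its name carries NRAS and AML1-ETO9a. By their labels they were wild type (WT) or lacked Tet2 (knockout, KO), and actinomycin D at 5 µg/ml lasted 0, 4 or 8 h. Each of these 6 groups had 2 libraries. They grew with the cytokines SCF, IL-3 and IL-6 and under the selection drugs G418 and puromycin, and the labels name no other line. Whether both libraries of a group stem from different cultures is not given in the labels. A p-value here therefore reflects no more than the spread among these libraries, which could be technical.

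Actinomycin D binds DNA and blocks RNA polymerases, so a transcript can then only be lost and not replaced. In unperturbed cells the level of an mRNA is set by its synthesis and its decay together, and blocking synthesis leaves decay visible. Decay usually begins with shortening of the poly(A) tail, followed by removal of the cap and digestion from either end, and sequences in the 3' UTR, such as AU-rich elements bound by proteins of the ZFP36 family, can speed it. Short-lived mRNAs are known to encode mostly regulators, and long-lived mRNAs mostly metabolic and structural proteins.

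The labels name no added RNA standard, so a change in TPM is a change against all other transcripts: when most transcripts are lost, those lost more slowly gain TPM. In these bulk samples, fewer cells of a type and less RNA per cell cannot be told apart. TPM keep no sequencing depth, which stays unknown. Across genes Pearson's r was 0.991 to 0.994 within groups and no more than 0.974 between them. The WT 0 h libraries stood further apart than those at 4 h: the median log2(TPM + 1) over genes was 4.29 and 4.47 at 0 h and 3.10 and 3.08 at 4 h, and the 10 most abundant genes took 22.0% and 17.8% of TPM at 0 h and 23.8% and 24.3% at 4 h.

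Tet2, the gene targeted in KO cells, went from 13.1 and 16.0 TPM to 10.6 and 10.2 in WT cells. It fell by 0.44 ± 0.13 on the log2 scale (SE, n = 2 against 2, limma adjusted p = 0.00678). It no longer passed when WT 0 h replicate 2 was left out (adjusted p = 0.0625, the highest over 16 alternatives), and relative to the median gene Tet2 was higher by 0.37. The cells carried markers of granulocytes and related myeloid cells: the 26 genes of later neutrophil granules summed to between 68474.5 and 93528 TPM at 0 h and between 90348 and 92012 at 4 h. The 18 listed azurophil granule genes summed to between 30608 and 34175 TPM at 0 h and between 41975 and 43378 at 4 h, of which Lyz2, not particular to precursors, made up the larger part. Bpi of that list was at 0 in all 4 libraries. The 12 B cell markers summed to at most 1.85 TPM in these libraries, with Pax5 and Ms4a1 at 0, and of the 16 T and NK cell markers Cd3d, Cd3e and Cd3g were at 0.

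Most transcripts had lost share by 4 h. Of the 11152 genes, 7916 (71.0%) were lower and 755 (6.77%) were higher at 4 h than at 0 h at a limma adjusted p under 0.05, and 2481 passed in neither direction. The groups did not overlap, lower at 4 h, in 8607 genes, and higher in 1069. The median log2 change was -0.81, with quartiles of -1.51 and -0.23. In all, 4778 genes had lost at least 1 on the log2 scale, 1368 at least 2, 162 at least 3 and 8 at least 4, while 37 were higher by at least 1, of which 28 passed the test, and 4 by at least 2, of which 2 passed. The median TPM of a tested gene was 18.6 and 21.2 in the 0 h libraries and 7.56 and 7.48 at 4 h. The genes called lower held 27.9% and 31.4% of TPM at 0 h and 15.1% and 14.7% at 4 h, and the 755 called higher held 44.5% and 44.3% at 0 h and 58.5% and 59.1% at 4 h. Genes were sorted here by their own call, so the direction of these shifts was set by the sorting. Across all tested genes the change had a Spearman rho of 0.10 with the mean TPM at 0 h.

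Each gene was also set against the median gene, by taking -0.81 off its change with the same standard error. On that scale 4044 genes (36.3%) were lower and 3911 (35.1%) were higher at a limma adjusted p under 0.05. The 4044 had all been called lower before. Of the genes called lower as a share, 1014 passed as higher than the median gene, as did 2142 genes that had passed in neither direction. Scaling each library by its median ratio to the mean over libraries, instead of taking TPM as deposited, moved the median change of all genes to 0.01 and gave 3931 lower and 4075 higher genes. The counts of each gene list that follow stand beside 71.0% lower and 6.77% higher among all genes. Counts of members lower or higher than the median gene are also of those that passed.

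**Figure D1:**
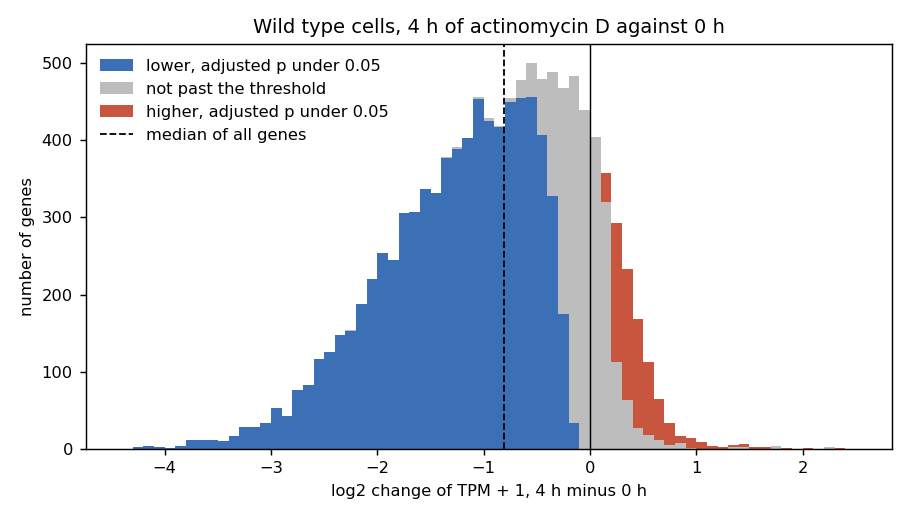
Number of genes (vertical axis) by log2 change of TPM + 1 from 0 h to 4 h (horizontal axis) in WT cells, colored by the direction of the call. The bulk of the 11152 genes lies left of 0, the dashed median is at -0.81, and the tail of losses reaches -4.24 while few gains pass 1.

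The 12 largest falls among genes with a mean of at least 10 TPM included several genes of transcription factors and coregulators. Cited2, a transcriptional coregulator that binds CBP and p300, went from 248 and 307 TPM to 14.2 and 14.3, so that 5.14% of its share was left. Its log2 change was -4.18 ± 0.10 (SE, limma adjusted p = 1.31e-10), and the libraries of a time agreed closely compared with that gap. Cited2 is a gene of a single annotated exon on chromosome 10 (ENSMUSG00000039910.10, 17723218 to 17725674, plus strand, GRCm38). Nfe2l2, the transcription factor of the oxidative stress response, went from 119 and 138 TPM to 6.82 and 5.59, a change of -4.17 ± 0.12. Myc, the growth-promoting transcription factor whose mRNA is a textbook example of fast decay, went from 84.1 and 98.8 TPM to 3.74 and 4.90 (-4.12 ± 0.13). The corepressor gene Irf2bp1, from 20.7 and 23.7 TPM to 0.09 and 0.37, had the largest estimate of these (-4.24 ± 0.16).

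The other genes of the 12 were less alike in role. The noncoding snoRNA host Gas5, which is known to be degraded while it is translated, went from 27.5 and 35.7 TPM to 0.76 and 0.75 (-4.20 ± 0.18). The ETS family transcription factor Fli1 went from 37.4 and 45.3 TPM to 1.78 and 1.02 (-4.15 ± 0.22). Il16, which encodes a precursor of a chemoattractant cytokine, went from 39.6 and 45.9 TPM to 1.61 and 1.51 (-4.09 ± 0.13). The remaining 5 were Nfkbia (-3.92 ± 0.13), which encodes the inhibitor of NF-kappaB, Rin3 (-3.90 ± 0.11), a Rab5 exchange factor, Mtus1 (-3.84 ± 0.15), Akirin2 (-3.73 ± 0.13), a nuclear protein of the innate immune response, and Nrros (-3.66 ± 0.09), a transmembrane protein that holds latent TGF-beta. The rule for the 12 genes required that both 4 h libraries lay below both 0 h libraries. For these 12 no call was lost in the 16 alternatives run besides an added 2-fold limit.

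**Figure D2:**
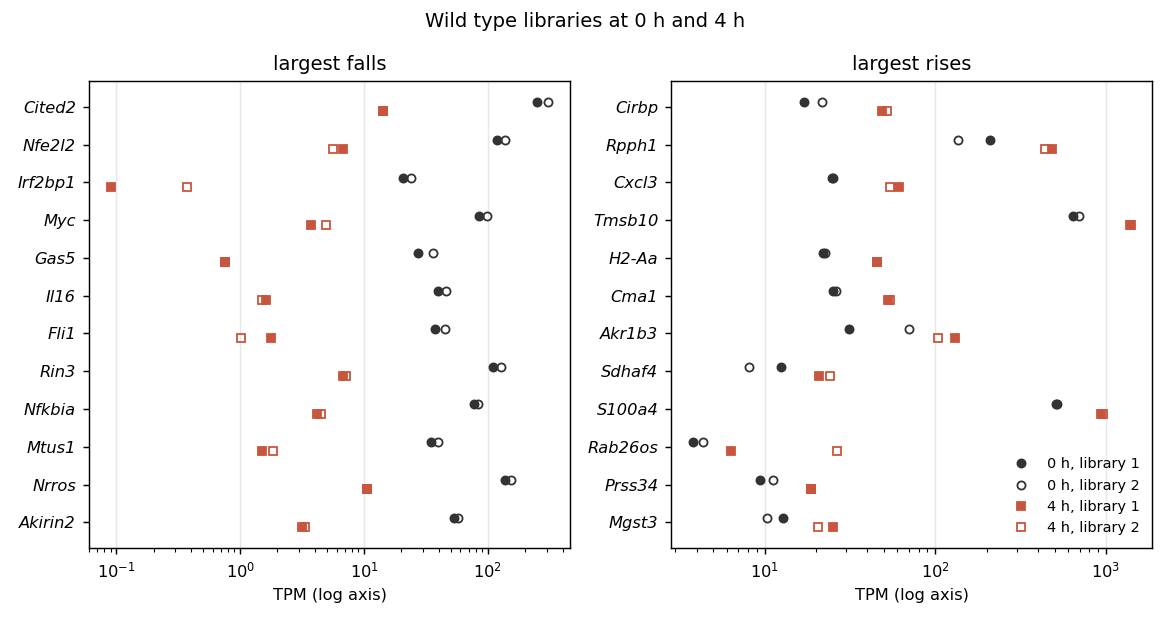
TPM (log axis) of each WT library at 0 h and 4 h for the 12 largest falls (left) and the 12 largest rises (right). Each fall separates the times by more than 10-fold, as in Cited2 from 248 and 307 to 14.2 and 14.3, while the rises are mostly near 2-fold, as in H2-Aa from 22.0 and 22.6 to 45.5 and 45.6.

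Immediate early genes, which encode the fast transcriptional response to growth factors, fell in 30 of 37 tested members and rose in 1. Their median was -1.16, beside -0.81 for all genes, and relative to the median gene 18 were lower and 5 higher. After median-ratio scaling 18 were lower and 7 higher, with a median of -0.37. Fos, a subunit of the AP-1 transcription factor, went from 59.9 and 62.1 TPM to 4.33 and 3.11 (-3.73 ± 0.21, limma adjusted p = 1.46e-08). The list was uneven. Junb, another AP-1 subunit, kept 34.3% of its share (from 149 and 174 TPM to 55.4 and 55.2), and Id1, an inhibitor of basic helix-loop-helix factors, kept 27.7%. The member that rose was Phlda1, from 8.69 and 10.9 TPM to 14.1 and 14.6 (0.52 ± 0.19, limma adjusted p = 0.0254), a call that 5 of 16 alternatives did not keep (highest adjusted p = 0.175), among them those without WT 0 h replicate 1 and without either WT 4 h replicate.

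Genes of negative feedback fell in 32 of 34 members, with 1 higher and a median of -1.81, and in 26 with 3 higher and a median of -0.84 after median-ratio scaling. These encode inhibitors that NF-kappaB, ERK or JAK-STAT signaling switches on against itself. Nfkbia went from 77.1 and 82.8 TPM to 4.15 and 4.51. The phosphatases of MAP kinases followed the same course, with Dusp2 going from 23.8 and 26.0 TPM to 1.03 and 1.09 (-3.65 ± 0.28) and Dusp5 from 17.6 and 19.0 TPM to 0.56 and 0.81 (-3.52 ± 0.23). The exception was Nfkbiz, a nuclear IkappaB protein that acts as a coactivator rather than as a brake, which rose from 5.06 and 6.44 TPM to 8.86 and 11.3 (0.71 ± 0.15, limma adjusted p = 0.000753).

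The list with the lowest median was that of myeloid and stem cell transcription factors (-2.08), with 47 of 50 lower, 0 higher and 40 lower than the median gene. After median-ratio scaling 41 were lower and 1 higher. Besides Fli1 and Nfe2l2, Gfi1, a repressor that directs granulocyte development, went from 54.3 and 60.4 TPM to 2.64 and 4.10 (-3.76 ± 0.17). Cebpb, which drives myeloid maturation, went from 266 and 307 TPM to 32.9 and 38.3 (-2.97 ± 0.15). Irf7, the interferon regulatory factor, did not pass, with 59.9 and 63.8 TPM at 0 h and 54.0 and 54.3 at 4 h, and was higher than the median gene by 0.62. Zinc finger genes named Zfp, mostly transcriptional repressors, were low in level (a list median of 5.87 TPM at 0 h) and fell in 276 of 286 members with 0 higher and a median of -1.49. Those with the largest falls were Zfp146 (-3.18 ± 0.19), Zfp746 (-3.16 ± 0.18) and Zfp638 (-3.08 ± 0.17). Histone-modifying enzymes fell in 57 of 63, with 0 higher and a median of -1.35, and the acetyltransferase Ep300 went from 41.2 and 48.5 TPM to 3.91 and 4.47 (-3.14 ± 0.14). Prmt1, an arginine methyltransferase, did not pass (105 and 123 TPM at 0 h, 123 and 115 at 4 h). Leaving out WT 0 h replicate 2 gave 3 higher histone-modifying enzymes. After median-ratio scaling 38 of these enzymes were lower and 13 higher (median -0.50), and 211 Zfp genes were lower and 8 higher (-0.74).

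The AU-rich nonamer is shown for 6 genes because it marks a classical signal of fast decay and yet stood in transcripts of opposite change. Each line gives 30 bases of the 3' UTR, 5' to 3' on the transcript's strand, with the nonamer TTATTTATT in capitals, from the GENCODE M21 representative transcript on GRCm38.
Nfkbia, log2 change -3.92, chr12:55489607-55489636, minus strand: ggaccacgttTTATTTATTgtgcttttgat
Akirin2, log2 change -3.73, chr4:34566778-34566807, plus strand: tttggtagttTTATTTATTctatcagtctt
Fos, log2 change -3.73, chr12:85477103-85477132, plus strand: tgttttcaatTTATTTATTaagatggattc
Hk2, log2 change -2.78, chr6:82725900-82725929, minus strand: tttatacgagTTATTTATTccagactgttt
Ndufv2, log2 change -0.50, chr17:66078858-66078887, minus strand: ttagctatatTTATTTATTttgatacagga
Cxcl3, log2 change 1.17, chr5:90787867-90787896, plus strand: ttatcagttgTTATTTATTgaaatggtctt
The first 4 genes lost most of their share, Ndufv2, a subunit of respiratory complex I, lost less than the median gene, and Cxcl3, a neutrophil chemoattractant, gained share. The nonamer was present in 7.28% of the 10688 tested genes with an annotated 3' UTR (778 genes, transcript strand only). Among the genes named here by the fixed rule it was in 11 of 225 with a 3' UTR. Of these 7 were lower, 3 higher and 1 in neither direction. The rule picks genes in both directions, so this split follows in part from it. Among all tested genes with 1 nonamer, 530 of 610 were lower and 15 higher. With 2 the counts were 91 and 3 of 109, and with at least 3 they were 52 and 1 of 59. Of the 9910 genes without it 7019 were lower and 698 higher. A match is a description and not a shown binding site.

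Genes of the p53 response fell in 23 of 28 members (82.1%, beside 71.0% of all genes) with 0 higher and a median of -1.26. Relative to the median gene 14 were lower and 5 higher, and after median-ratio scaling 13 and 6, with a median of -0.38. Among those that fell was Sesn2, from 28.3 and 31.1 TPM to 1.99 and 2.15 (-3.32 ± 0.13). Bax and Pmaip1, which promote mitochondrial cell death, did not pass, with 194 and 221 TPM for Bax at 0 h and 216 and 237 at 4 h, and 45.3 and 51.0 TPM for Pmaip1 at 0 h and 57.2 and 54.2 at 4 h. The BCL2 family to which they belong fell in 16 of 19 members with 0 higher and a median of -0.71, which became 0.29 after median-ratio scaling. Its anti-apoptotic member Mcl1, known for a short-lived mRNA and protein, went from 202 and 222 TPM to 40.8 and 46.3 (-2.26 ± 0.10), and Bcl2l1 from 30.5 and 38.9 TPM to 7.52 and 7.10 (-2.09 ± 0.13). The death agonist Bid fell as well (-2.26 ± 0.11). Leaving out WT 0 h replicate 2 gave 2 higher members in each list.

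Most cell cycle genes fell. Mitosis genes fell in 49 of 52 members with 0 higher and a median of -1.58, and 36 were lower and 7 higher than the median gene. After median-ratio scaling 34 were lower and 9 higher (median -0.61), and 1 was higher without WT 0 h replicate 2. Kif20b, a kinesin of cell division, went from 34.8 and 40.5 TPM to 2.19 and 1.88 (-3.67 ± 0.18), and the kinase Aurka from 66.0 and 76.9 TPM to 6.22 and 4.95 (-3.46 ± 0.22). Ccnb2, a mitotic cyclin, did not pass, with 93.8 and 101 TPM at 0 h and 84.5 and 89.7 at 4 h, and was higher than the median gene by 0.65. Replication genes fell in 46 of 52 with 0 higher and a median of -0.86, close to that of all genes, and after median-ratio scaling their median was 0.10, with 13 lower and 23 higher. Without WT 4 h replicate 2, 1 replication gene was higher. Chaf1a, a chaperone that loads histones on new DNA, fell from 41.3 and 45.9 TPM to 5.97 and 5.89 (-2.69 ± 0.11). The nucleotide enzyme Dut did not pass, with a change of 0.11 ± 0.10.

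Most genes of the machinery of RNA decay and RNA modification lost share, as did most genes of the whole set. Of 69 genes of mRNA decay and AU-rich element binding 63 fell (91.3%, beside 71.0% of all genes) and 2 rose. Their median was -1.13, and 37 were lower and 13 higher than the median gene. After median-ratio scaling 30 were lower and 18 higher (median -0.20). Cnot4, of the CCR4-NOT deadenylase complex, went from 13.7 and 15.8 TPM to 0.99 and 0.64 (-3.12 ± 0.19). The members that rose were Lsm4 (0.38 ± 0.07) and Lsm5 (0.77 ± 0.12), small proteins of the ring that binds the ends of deadenylated mRNA. Genes of RNA 5-methylcytosine and m6A fell in 28 of 32 (87.5%, beside 71.0% of all genes) and rose in 1, with a median of -1.17. After median-ratio scaling 15 were lower and 9 higher (median -0.32), and without WT 0 h replicate 2, 3 were higher. The m6A readers Ythdf2, from 34.4 and 36.9 TPM to 2.63 and 3.03 (-3.26 ± 0.13), and Ythdf1 (-2.92 ± 0.14) were among them. The member that rose was Ybx1, a Y-box protein that binds mRNA, from 655 and 813 TPM to 1144 and 1095 (0.62 ± 0.08, limma adjusted p = 2.12e-05).

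Between the extremes lay housekeeping groups whose direction depends on the reference. As a share, aminoacyl-tRNA synthetases fell in 21 of 23 (median -0.57), mitochondrial ribosomal proteins in 53 of 78 (-0.56), SR proteins and hnRNPs in 32 of 42 (-0.53), cytosolic chaperones in 29 of 44 (-0.48), translation factors in 34 of 50 (-0.42) and proteasome subunits in 23 of 38 (-0.24). The same lists had 0, 5, 2, 1, 9 and 1 members higher. Relative to the median gene most called members lay on the other side: 13 synthetases, 38 mitochondrial ribosomal proteins, 22 splicing factors, 23 chaperones, 26 translation factors and 30 proteasome subunits were higher, against 4, 15, 11, 14, 6 and 4 lower. After median-ratio scaling the 6 medians were 0.43, 0.41, 0.46, 0.38, 0.57 and 0.75. Within the chaperones Hspa8, the constitutive HSC70, stood out, from 3007 and 3368 TPM to 392 and 360 (-3.08 ± 0.08). Genes of nucleolar ribosome biogenesis fell in 60 of 69 and rose in 3, with a median of -0.95 that was 0.02 after median-ratio scaling. Mphosph10 (-3.52 ± 0.15) and Gnl3 (-2.93 ± 0.16), both nucleolar, led them. Single libraries moved the small counts of gains: without WT 0 h replicate 1, 5 translation factors and 1 nucleolar gene gained, the latter also without either WT 4 h replicate, and without WT 0 h replicate 2, 3 chaperones, 2 proteasome subunits and 4 splicing factors gained. The splicing factors that gained numbered 1 without WT 0 h replicate 1 or WT 4 h replicate 1, and 0 proteasome subunits gained without WT 0 h replicate 1 or WT 4 h replicate 2.

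Gains were small beside the losses. Cirbp, a cold-inducible RNA-binding protein, went from 17.0 and 21.8 TPM to 49.0 and 51.9, a change of 1.34 ± 0.12 (SE, limma adjusted p = 3.87e-07). It lies on chromosome 10 (ENSMUSG00000045193.13, 80165985 to 80172786, plus strand, GRCm38). Tmsb10, a small protein that binds actin monomers, went from 644 and 692 TPM to 1393 and 1385 (1.06 ± 0.06, limma adjusted p = 1.59e-08). Cxcl3 went from 24.9 and 25.2 TPM to 60.9 and 54.1 (1.17 ± 0.08). The calcium-binding S100a4 gained 0.89 ± 0.11, from 513 and 513 TPM to 940 and 959. The rule that picked these genes required that both 4 h libraries lay above both 0 h libraries.

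Several of the 12 largest rises are uncertain. Rpph1, from 209 and 136 TPM to 482 and 441 (1.44 ± 0.20), is annotated as a ribozyme, the RNA of RNase P, and its measurement by an mRNA protocol is uncertain. The antisense RNA Rab26os rested on a single library, with 6.34 and 26.6 TPM at 4 h, and it did not pass once WT 4 h replicate 2 was left out (adjusted p = 0.0607). The aldose reductase Akr1b3 went from 31.0 and 69.7 TPM to 130 and 104, so that its 0 h libraries differed by more than its 4 h libraries. The others were H2-Aa, Cma1, Prss34, the assembly factor Sdhaf4 (1.08 ± 0.19) and the membrane glutathione enzyme Mgst3 (0.92 ± 0.16). Among clustered histone genes, which are near-identical copies and whose mRNAs mostly lack a poly(A) tail, 7 were lower and 12 higher of 62, and their values are uncertain.

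Cytosolic ribosomal protein genes, which encode the proteins of the ribosome, gained share in 67 of 84 tested members and fell in 1. The median was 0.37, and 83 were higher than the median gene. Rps15 went from 2850 and 2937 TPM to 4444 and 4562 (0.64 ± 0.06, limma adjusted p = 1.08e-06), and Rplp2 from 3418 and 2975 TPM to 4787 and 5396 (0.67 ± 0.09). The member that fell was Rpl7l1, a paralog of Rpl7 linked to ribosome assembly, from 80.8 and 91.1 TPM to 54.0 and 58.0. The list median stayed above 0 in each scaling, at 1.38 with median-ratio and 0.21 with housekeeping scaling, where in the latter 46 were higher and 3 lower. Nuclear genes of oxidative phosphorylation gained in 44 of 81 and fell in 10, with a median of 0.26, and 21 gained and 16 fell after housekeeping scaling. Without WT 4 h replicate 1, 6 of them fell, and without WT 0 h replicate 2, 4 ribosomal protein genes fell. Uqcr11, a small subunit of complex III, went from 270 and 224 TPM to 410 and 465 (0.83 ± 0.13). Among the 10 that fell was Atp5sl, from 22.1 and 25.9 TPM to 8.84 and 11.9 (-1.14 ± 0.16), a call lost after median-ratio scaling. Complex I subunits were also among them. Ndufs7 went from 156 and 141 TPM to 93.5 and 90.1 (-0.68 ± 0.09), a change that was 0.31 after median-ratio scaling. Transcripts of the ribosomal protein and oxidative phosphorylation lists were short, at a median of 882 and 861 nt beside 2873 nt for all tested genes. With transcripts under 1000 nt left out, 40 of the 47 remaining ribosomal protein genes and 21 of the 43 remaining oxidative phosphorylation genes gained.

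Lysosomal and antigen presentation genes, which encode enzymes and membrane proteins of endosomes, were among the most retained. Lysosomal genes gained in 26 of 56 and fell in 9, with a median of 0.15, and 53 were higher than the median gene and 0 lower. The gains rested in part on the scale, since with housekeeping scaling 18 gained, 20 fell and the median was -0.01. Ctss, the cathepsin that trims the invariant chain, went from 371 and 398 TPM to 618 and 571 (0.63 ± 0.07), Ctsl from 58.1 and 59.5 TPM to 93.4 and 94.5 (0.67 ± 0.07) and Npc2, a cholesterol carrier, from 158 and 169 TPM to 259 and 257 (0.66 ± 0.06). Of 14 MHC class II genes 7 gained and 3 fell. The chains H2-Aa (1.00 ± 0.12, limma adjusted p = 5.63e-06) and Cd74 (0.71 ± 0.07), from 368 and 415 TPM to 653 and 627, gained. The 3 that fell were Rfx5 (-1.77 ± 0.15), Rfxap (-1.58 ± 0.27) and Rfxank (-1.21 ± 0.19), the subunits of the transcription factor that drives the class II genes. The calls of Rfxap and Rfxank were lost after median-ratio scaling (adjusted p = 0.0543 and 0.0888).

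**Figure D3:**
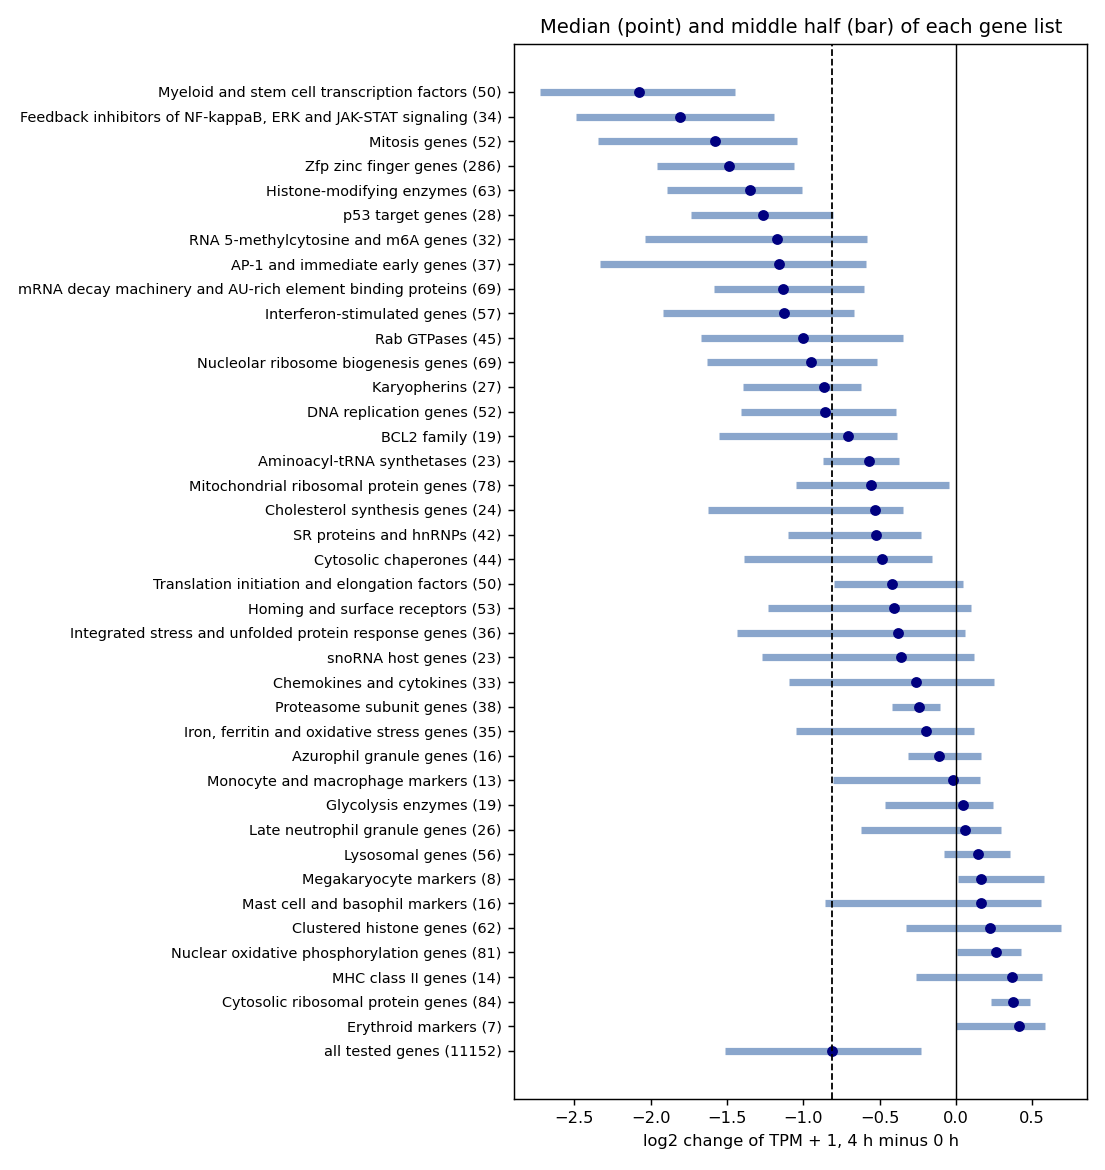
Median log2 change (point) and middle 50% of members (bar) of each list with at least 5 tested genes, number tested in brackets, with 0 as a solid and the median of all genes as a dashed line. Transcription factors (-2.08) and feedback inhibitors (-1.81) lie lowest, ribosomal proteins (0.37) and oxidative phosphorylation genes (0.26) among the highest.

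Granule genes of neutrophils and mast cells, which store proteases and antimicrobial proteins, were called in both directions. Of 16 azurophil granule genes 4 gained, 6 fell and the median was -0.11, with 14 higher than the median gene, and the median was 0.90 after median-ratio scaling. Without WT 0 h replicate 2, or without WT 4 h replicate 2, 3 fell. Lyz2, lysozyme, went from 21359 and 24118 TPM to 33573 and 32541 (0.54 ± 0.06). The proteinase 3 gene Prtn3 did not pass, with 516 and 537 TPM at 0 h and 484 and 506 at 4 h. Of 26 genes of later neutrophil granules 10 gained and 8 fell (median 0.06, and -0.10 after housekeeping scaling), and without WT 4 h replicate 1, 6 gained. Camp, cathelicidin, went from 213 and 257 TPM to 344 and 346 (0.56 ± 0.15), which did not pass when WT 0 h replicate 1 was left out (adjusted p = 0.0661), whereas the receptor Fpr1, also on that list, fell from 74.3 and 74.9 TPM to 4.53 and 6.20 (-3.58 ± 0.17). Mast cell and basophil markers gained in 7 of 16 and fell in 5. The proteases Cma1 (from 25.3 and 26.2 TPM to 52.6 and 54.2, 1.03 ± 0.13), Mcpt4 (0.97 ± 0.17) and Prss34 (0.81 ± 0.10) gained, and the transcription factor Gata2 (-2.97 ± 0.15) and the SCF receptor Kit (-1.25 ± 0.13) fell. The 18 mast cell and basophil markers summed to 3692 and 3953 TPM at 0 h and between 4356 and 4690 at 4 h, with Mcpt1 at 0, and their part in other results was not tested.

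Receptors and secreted factors were mixed. Of 53 homing and surface receptors 31 fell and 8 gained, with a median of -0.40 that was 0.43 after median-ratio scaling. Without WT 0 h replicate 1, 5 gained. Cxcr4, the receptor for CXCL12 that holds cells in the marrow, went from 96.9 and 122 TPM to 13.5 and 12.8 (-2.95 ± 0.14, limma adjusted p = 5.9e-09). S1pr2 (-3.72 ± 0.17) and Ccr1 (-2.94 ± 0.09) also fell, while the cytokine receptor chains Il3ra (0.48 ± 0.12) and Csf2ra (0.37 ± 0.08) gained. The tetraspanin Tspan13 was low and did not pass, with 2.27 and 2.90 TPM at 0 h and 2.52 and 2.70 at 4 h. Of 33 chemokines and cytokines 15 fell and 7 gained (median -0.26, and 0.63 after median-ratio scaling). Ltb, lymphotoxin beta, went from 20.8 and 22.6 TPM to 3.26 and 4.28 (-2.26 ± 0.34), whereas the chemokine Ccl6 went from 1188 and 1263 TPM to 1866 and 1823 (0.59 ± 0.05). Interferon-stimulated genes fell in 46 of 57 (80.7%, beside 71.0% of all genes) and gained in 5, with a median of -1.12. After median-ratio scaling 25 were lower and 14 higher (median -0.21), and with transcripts under 1000 nt left out 1 of 51 gained. Slfn2, a Schlafen family gene, went from 320 and 371 TPM to 33.8 and 37.9 (-3.23 ± 0.12) and Irgm1, a GTPase, from 44.3 and 46.5 TPM to 5.26 and 4.06 (-3.04 ± 0.19). The membrane restriction factors Bst2 (0.72 ± 0.07), Ifitm1 (0.61 ± 0.11) and Ifitm2 (0.45 ± 0.06) gained.

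Metabolic enzymes were called in both directions. Glycolysis enzymes gained in 7 of 19 and fell in 7, with a median of 0.05 that was -0.12 after housekeeping scaling. Pkm, pyruvate kinase, went from 1484 and 1714 TPM to 2062 and 2069 (0.37 ± 0.06), while Hk2, hexokinase 2, went from 50.3 and 61.8 TPM to 7.37 and 7.14 and the glucose transporter Slc2a1 from 63.2 and 71.3 TPM to 14.1 and 13.0 (-2.23 ± 0.14). Cholesterol synthesis genes fell in 19 of 24 (79.2%, near the 71.0% of all genes) with 0 higher, a count that moved without WT 0 h replicate 1. Their median was -0.53, beside -0.81 for all genes, and 0.40 after median-ratio scaling. Relative to the median gene 12 were higher and 7 lower. Among those that fell were Hmgcs1 (-3.22 ± 0.16) and Sqle (-2.61 ± 0.16), both enzymes of that pathway. Genes of iron and oxidative stress fell in 18 of 35 and gained in 8 (median -0.20, and 0.79 after median-ratio scaling). Among them Ftl1, the ferritin light chain, went from 13232 and 14429 TPM to 21880 and 22552 (0.68 ± 0.05), and Bach1, a repressor of that pathway, from 32.1 and 38.3 TPM to 3.07 and 2.74 (-3.21 ± 0.17). The integrated stress and unfolded protein response list had 19 lower and 5 higher of 36 (median -0.38, and 0.61 after median-ratio scaling), and leaving out single libraries gave 2 to 8 higher, each of the 4 moving the count by more than 1.5 times. Its transcription factor Xbp1 went from 271 and 300 TPM to 26.1 and 25.4 (-3.42 ± 0.09), and the folding proteins Calr (0.34 ± 0.08) and Pdia6 (0.40 ± 0.07) gained.

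The remaining lists held smaller or mixed groups. Of 23 snoRNA host genes, whose introns carry small nucleolar RNAs, 12 fell and 5 gained (median -0.36, and 0.59 after median-ratio scaling). Besides Gas5 and Gnl3, Snhg5 fell from 31.9 and 38.8 TPM to 6.62 and 6.92 (-2.22 ± 0.21), while Snhg17 gained, from 4.90 and 4.81 TPM to 9.13 and 8.46 (0.74 ± 0.16). Karyopherins and their partners, which carry proteins through the nuclear pore, fell in 22 of 27 with 0 higher (median -0.87, and 0.06 after median-ratio scaling), or with 2 higher without WT 0 h replicate 2. They included Kpna2, from 387 and 432 TPM to 104 and 98.5 (-2.003 ± 0.08). Rab GTPases, switches of vesicle traffic, fell in 35 of 45 (77.8%, near the 71.0% of all genes) and gained in 5 (median -1.001). After median-ratio scaling 19 were lower and 14 higher (median -0.02). They gained in 3 without WT 0 h replicate 1 or WT 4 h replicate 2. Rab9 fell from 30.2 and 32.4 TPM to 1.78 and 1.53 (-3.61 ± 0.19), and Rab37 gained, from 13.1 and 15.2 TPM to 21.9 and 21.9 (0.60 ± 0.09).

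Markers of monocytes were high as a sum, and those of most other cell types were low or few. The typical monocyte marker was not abundant: the 13 tested had a median of 14.8 TPM at 0 h, beside 19.9 for all tested genes. Monocyte and macrophage markers fell in 6 of 13 and gained in 3 (median -0.02, and 0.37 after median-ratio scaling), with 1 gaining without WT 4 h replicate 1, and summed to between 3927 and 4100 TPM at 0 h and between 4462 and 4659 at 4 h. Ccr2, a chemokine receptor of monocytes, fell from 62.2 and 71.4 TPM to 15.7 and 15.4 (-2.03 ± 0.10). Of 7 tested erythroid markers 1 fell and 2 gained, the latter being Hbb-b2 and Hbb-bt, adult beta globin genes with identical values in each library, so that they count as 1 measurement. The fall did not pass without WT 0 h replicate 2 or either WT 4 h replicate. Of 8 megakaryocyte markers 0 fell and 3 gained, among them Pf4, platelet factor 4, from 53.4 and 52.5 TPM to 81.3 and 82.3 (0.62 ± 0.14). None of 4 stromal and endothelial markers passed in either direction, though 1 was lower without WT 0 h replicate 1 and 1 higher without replicate 2. Of the 31 housekeeping genes used for one scaling 8 fell and 15 gained, with 5 falling when WT 0 h replicate 2 was left out, and Tbp, the TATA-binding protein, was among those that fell (-3.11 ± 0.23). Of the T and NK cell markers only Nkg7, which is also a granule gene, was tested.

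The change over the first 4 h was then compared with that over the second 4 h in the same cells, by the difference of the changes, (4 h minus 0 h) minus (8 h minus 4 h). The WT 4 h libraries enter both changes. At a limma adjusted p under 0.05 the difference was below 0 in 4094 genes (36.7%) and above 0 in 1540 (13.8%). The other counts below or above 0 between intervals are also of genes that passed. Below 0 means a larger loss or a smaller gain in the first interval. Ccl6 was below 0 though it gained in both intervals, by 0.59 and then 1.26. Of 56 lysosomal genes, with medians of 0.15 and then 0.45, 25 passed below 0 and 1 above 0, and the others did not pass. A gene near 0 TPM at 4 h cannot fall further, so the comparison is clearer among the 5243 genes with at least 5 TPM at each time. This filter keeps the genes that were lost least. Of the 5243 genes 1066 passed below 0 and 1384 above 0. Median-ratio scaling gave 2812 genes below and 2876 above 0, and scaling to housekeeping genes 7284 and 290. The count above 0 was 911 when WT 4 h replicate 1 was left out, and 1021 when it was replicate 2.

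Some transcripts lost most of their share early and much less later. Cited2 had 11.8 and 11.4 TPM at 8 h, a further change of -0.27 ± 0.10 from 4 h (SE, limma adjusted p = 0.0307). Its difference of changes was -3.91 ± 0.17 (SE, limma adjusted p = 1.17e-07). Slfn2 had 34.2 and 39.9 TPM at 8 h beside 33.8 and 37.9 at 4 h (-3.27 ± 0.21). Rin3 (-3.62 ± 0.19), the small GTPase Arf6 (-3.34 ± 0.20) and Nrros (-3.18 ± 0.16) were the other named genes of this kind. In 338 of the 5243 genes the log2 change was at or below -1 in the first interval and smaller than 0.5 in size in the second. They included 13 of 22 immediate early genes with 5 TPM at each time, among them Junb, Ier2 and Egr1, 8 of 16 feedback inhibitors and 12 of 38 interferon-stimulated genes. These counts are descriptions, and thresholds of 1 and 0.5 were set for them.

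Other transcripts kept their share for 4 h and then lost it. Prtn3 kept 484 and 506 TPM to 4 h but only 60.5 and 62.8 to 8 h, a difference of changes of 2.90 ± 0.11 (SE, limma adjusted p = 7.91e-08). Elane, neutrophil elastase, went from 89.0 and 96.2 TPM to 77.5 and 80.4 after 4 h, then to 10.4 and 9.94 after 8 h (2.61 ± 0.21). The 2 genes are neighbors on chromosome 10, Prtn3 from 79874476 to 79883174 and Elane from 79886247 to 79888215 (GRCm38, plus strand). Plac8 kept 1778 and 1780 of its 1925 and 1932 TPM at 4 h and had 369 and 363 at 8 h (2.16 ± 0.09). Ms4a3 (2.00 ± 0.10) and the chromatin protein Hmgb3 (2.20 ± 0.23) behaved likewise. In 275 of the 5243 genes the change was smaller than 0.5 in size in the first interval and at or below -1 in the second. They included 5 of 12 azurophil granule genes with 5 TPM at each time (Ctsg, Elane, Ms4a3, Plac8 and Prtn3) and 12 of 38 SR proteins and hnRNPs, and 0 of the 52 lysosomal and 81 ribosomal protein genes. The differences of these 10 named genes kept their call in every one of the 16 or 17 alternatives run for each besides a 2-fold limit, and their signs were the same under each scaling.

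**Figure D4:**
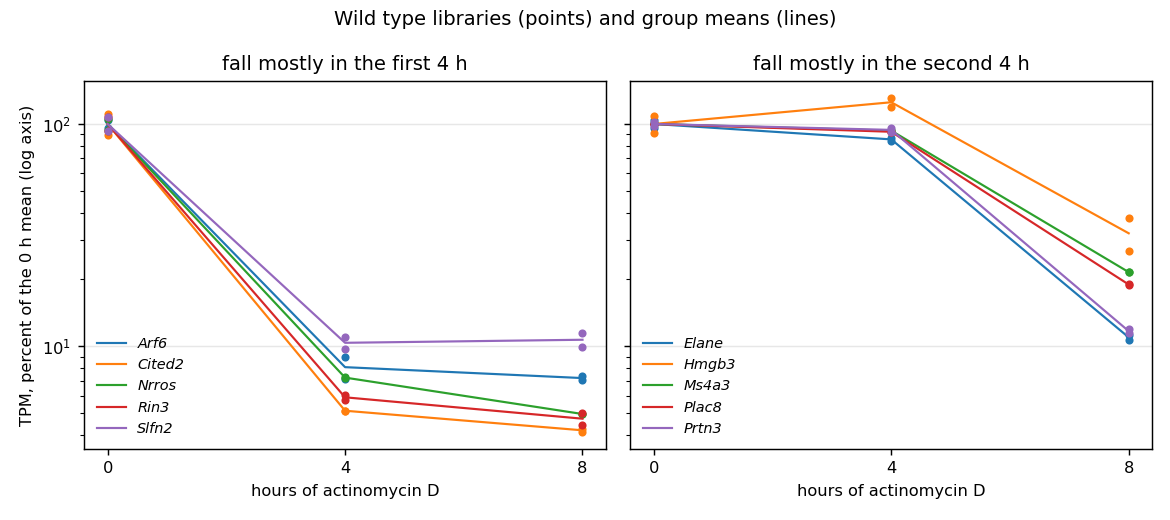
TPM of WT libraries as percent of the 0 h mean (vertical log axis) against hours of actinomycin D, for the 5 named genes with the larger loss in the first interval (left) and the 5 with the larger loss in the second (right). Points are libraries and lines join group means: Cited2 is at 5.14% at 4 h and somewhat lower at 8 h, while Prtn3 is at 94.1% at 4 h.

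The most similar comparison of the series is the same 4 h in the KO cells, which shares no library with the WT comparison. The changes of the 11152 genes in WT and KO cells had a Pearson r of 0.924 and a Spearman rho of 0.931 across genes, given as a description since genes are not independent replicates. By sign alone, 7834 of the 7916 genes called lower in WT cells were also below 0 in KO cells. Of the 755 called higher 669 were also above 0 there. Beside these, 9400 of all 11152 genes were below and 1742 above 0 in KO cells. The median change of all genes was -0.81 in WT and -0.70 in KO cells. The difference of the changes, KO minus WT, was below 0 in 33 genes (0.296%) and above 0 in 6 (0.0538%) at a limma adjusted p under 0.05, while 1763 genes had an unadjusted p under 0.05. Leaving out any one of the 8 libraries moved the count below 0 by more than 1.5 times, from 8 without KO 0 h replicate 2 to 79 without WT 0 h replicate 2. After median-ratio scaling 132 were below and 28 above 0, and after housekeeping scaling 101 and 480.

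Immediate early genes made up 8 of the 33, out of 37 tested. Junb went from 149 and 174 TPM to 55.4 and 55.2 in WT cells, and from 146 and 149 to 17.8 and 18.8 in KO cells. Its loss was larger in KO cells by 1.42 ± 0.12 on the log2 scale, a difference of -1.42 (SE, limma adjusted p = 0.000598). Id1 had 154 and 190 TPM and then 47.6 and 47.6 in WT cells, and 264 and 274 and then 28.7 and 23.8 in KO cells (-1.49 ± 0.15). Cited2 ended at 14.2 and 14.3 TPM in WT and at 7.11 and 7.18 in KO cells (-1.14 ± 0.14). Tmsb10, one of the largest gains in WT cells, went from 812 and 845 TPM to only 879 and 927 in KO cells (-0.93 ± 0.08, limma adjusted p = 0.000725). The snoRNA host Snhg20 went from 27.5 and 30.8 TPM to 37.5 and 38.3 in WT cells and from 26.2 and 29.6 to 16.9 and 17.3 in KO cells (-1.04 ± 0.13). Hspa8 fell less in KO cells, from 3778 and 3669 TPM to 689 and 733 (0.69 ± 0.11, limma adjusted p = 0.0201), a call lost in 7 of 18 alternatives (highest adjusted p = 0.0942).

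Transcripts lost early were longer than those retained. Genes with a 3' UTR were split by their change into 5 equal classes, from the most lost (median -2.13) to the least lost (median 0.15). The median length of the coding part was 1622 nt in the most lost and 795 nt in the least lost class. That of the 3' UTR was 1333 nt and 474 nt, and 1352 nt in the second most lost class. Across genes the change had a Spearman rho of -0.41 with transcript length, -0.35 with coding length and -0.29 with 3' UTR length, and of -0.05 with the number of exons. Genes whose longest transcript was at least 4000 nt had a median change of -1.17, and the 138 genes under 600 nt one of 0.21, with 0.33 when WT 0 h replicate 1 was left out and 0.11 when it was replicate 2. The density of exons went the other way: the median was 5.22 exons per 1000 nt of coding sequence in the most lost and 8.96 in the least lost class. Genes with 1 or 2 annotated exons had medians of -1.24 (n = 237) and -1.51 (n = 465), beside -0.67 for genes with 3 to 5. These are descriptions across genes that share the same libraries.

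AU-rich sequence was more frequent in the 3' UTR of lost transcripts, which were also longer. The pentamer ATTTA, searched on the transcript strand, was present in 77.5% of the most lost and 47.4% of the least lost class, and in 66.7% of all genes. Per 1000 nt of 3' UTR the 2 classes held 1.92 and 1.47 pentamers, a smaller gap, and the second most lost class held 1.94. The nonamer TTATTTATT shown above for Nfkbia and Fos, which contains the pentamer, was present in 9.49% of the most lost and 3.23% of the least lost class. It was most frequent in the second most lost class, at 10.5%. The 9910 genes without a nonamer had a median change of -0.79, the 610 with 1 of -1.20, the 109 with 2 of -1.07 and the 59 with at least 3 of -1.38, so that the loss did not grow steadily with their number. Their median 3' UTR lengths were 920, 2066, 2745 and 2963 nt. Within 3' UTRs of 1001 to 2000 nt the medians were -1.20 with and -0.96 without a nonamer, within 2001 to 4000 nt -1.23 and -1.08, and above 4000 nt -1.33 and -1.27. In shorter 3' UTRs they were -0.87 with and -0.77 without at 501 to 1000 nt, -0.69 and -0.50 at 251 to 500 nt (35 genes with), and -0.59 and -0.36 up to 250 nt (18 genes with). The gap was smallest above 4000 nt. Cxcl3 and Rps16, each with a nonamer in the annotated 3' UTR, gained share all the same.

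**Figure D5:**
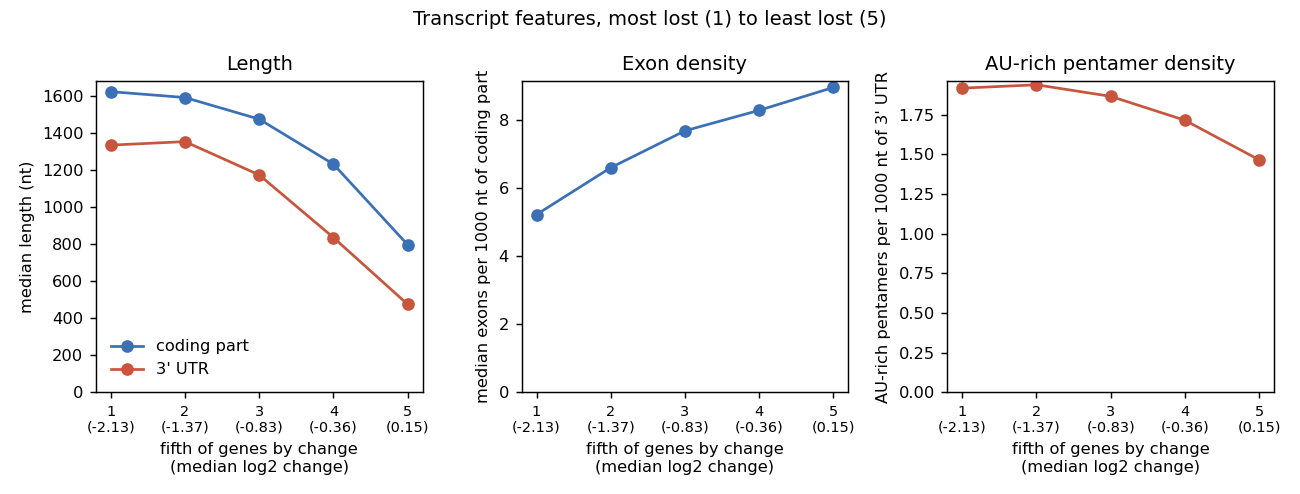
Transcript features of 5 equal classes of genes by change, from 1 (most lost, median -2.13) to 5 (least lost, median 0.15): median length of the coding part and the 3' UTR (left), median exons per 1000 nt of coding sequence (middle) and AU-rich pentamers per 1000 nt of 3' UTR (right). Length and pentamer density are lower in the least lost class, at 795 nt of coding part and 1.47 pentamers, and exon density is higher, at 8.96.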

How the data were processed

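TRIzol extracts went into stranded mRNA libraries, per the labels' protocols. STAR, RSEM and mm10 are named in the submitters' processing notes, with versions, annotation and strand setting not given in the sources used here. The deposited values are TPM per gene, computed by the authors, with each library summing to 1000000 within 1, so depth is unknown. Of 24589 genes 8737 were at 0 in every library and 27 had date-like names, which were not named here.

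TPM were taken as log2(TPM + 1), which understates changes of low genes. limma 3.58.1 in R 4.3.3 fitted 6 group means over 12 libraries, with 6 residual degrees of freedom, a trend on mean expression and Benjamini-Hochberg adjustment over 11152 genes at a threshold of 0.05. The fit was tested on simulated data. Genes were matched by symbol to GENCODE M21 (GRCm38, which mm10 denotes) for transcript features (99.2% matched). The authors' annotation may differ, and reads of near-identical genes may be split between them.

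The comparison, the 43 gene lists, the tests and the rule for named genes were chosen with earlier results of these data known. The rule took the 12 largest falls and rises (size minus 2 SE, mean of at least 10 TPM, no overlap), the 5 largest each way with at least 5 TPM for the differences between intervals and genotypes, up to 3 each way of each list with a mean of at least 5 TPM, and Tet2, Tspan13, Cxcr4 and Ybx1. Ier2, Egr1 and Ctsg were named after their values were seen. Alternatives were median-ratio scaling, scaling to 31 housekeeping genes, filters, pseudocounts, other limma settings, a replicate block and leaving out single libraries. Leaving out KO and 8 h libraries and a robust spread were added after seeing the data.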

Additional observations from a re-analysis of the deposited data

Results flagged for a closer look

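The change over 4 h differed between KO and WT cells, by the interaction test in limma, in 12 genes named above or by the same rule. Differences are KO minus WT on the log2 scale, and below 0 means a larger loss or a smaller gain in KO cells. Id1 (-1.49), Junb (-1.42), Cited2 (-1.14), Snhg20 (-1.04) and Tmsb10 (-0.93) kept an adjusted p under 0.05 in each alternative run besides a 2-fold limit. Ier5 (-1.40), Clk1 (-1.29), Nfkbia (-0.997), H2-Aa (-0.99), Slfn2 (-0.99), Cxcl3 (-0.80) and Hspa8 (0.69) lost it in 6 to 10 of 18 alternatives.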

How the results depend on the processing

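With 2 libraries per group and unknown depth, low genes are the least certain. Counts of genes lower, higher, below 0 or above 0 are of those at a limma adjusted p under 0.05. Median-ratio scaling gave 3931 lower and 4075 higher genes at 4 h, 2876 with a difference between intervals above 0, and 132 below and 28 above 0 for KO minus WT. Scaling to housekeeping genes gave 411 higher genes, 7284 below and 290 above 0 between intervals, and 101 and 480 for KO minus WT. A 2-fold limit left 3233 lower and 1 higher, 784 and 217 relative to the median gene, 844 and 37 between intervals, and 0 and 0 for KO minus WT. A mean of at least 5 TPM gave 2632 below 0 between intervals. For KO minus WT, limma without the trend gave 18 below 0, transcripts of at least 1000 nt 58 below and 25 above, a robust spread 52 and 13, no filter 15 above, and pseudocounts of 0.1 and 0.5 each 3 above. Leaving out single libraries gave 911 to 1752 above 0 between intervals, and 8 to 79 below and 1 to 19 above 0 for KO minus WT. The cause was not tested. With the replicate number as a block, 7888 genes were lower and 745 higher, 4017 and 3886 relative to the median gene, 4056 and 1480 between intervals and 32 and 8 for KO minus WT. Same-numbered libraries did not deviate together (correlations from -0.0834 to 0.0505), so the numbers were not taken as pairs. After median-ratio scaling 17 named genes that had passed the test changed sign: Actb (0.11), Atp6v1b2 (0.084), Atp6v1d (0.19), Ier5 (0.47), Ndufs7 (0.31), Ndufv2 (0.49), Nkg7 (0.12), Prss57 (0.44), Qars (0.71), Rpl7l1 (0.38), Serpinb1a (0.39), Slc16a3 (0.25), Smpd1 (0.10), Tet2 (0.48), Tfrc (0.80), Vcan (0.37) and Zfp106 (0.40). After housekeeping scaling Adgre1, of those that had passed, did (-0.0042).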
